A study of Mus musculus with 20 samples.

Results

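The genes described here are the members of the 4 mouse HOX clusters, taken as every gene symbol that begins with Hoxa, Hoxb, Hoxc or Hoxd followed by a number. The reference gene tables name 43 such genes, of which 39 are coding genes and 4 are antisense or opposite-strand transcripts. Of these 43 genes, 5 were listed in at least 1 of the 3 tables of called genes that the authors deposited, which together list 3696 genes. Those described by name are Hoxa3, Hoxc5, Hoxc6 and the opposite-strand transcript Hoxb5os. Hoxa3 was the 1 member listed in all 3 tables.

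RNA was sequenced from cleaned aortic tissue of female mice in 4 groups of 5 libraries, and each library combined tissue of 2 mice. WT young and WT aged mice were wild-type animals of 12 to 15 and 72 to 78 weeks. KO young and KO aged mice had the same ages and are labelled both knockdown and KO for Slc24a4, written elsewhere in the labels as Nckx4-/-, the gene of a potassium-dependent sodium/calcium exchanger. The labels name no strain, no further allele and no treatment, and the segment of aorta that was taken is not given in the sources used here. Slc24a4 was listed with a log2 fold change of −2.0 (SE 0.46) for WT aged against WT young in the authors' deposited table. It was listed in neither table that holds a KO group, so these tables do not check the KO label.

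HOX genes encode transcription factors that bind DNA through a homeodomain. Within a cluster they lie in the order in which they are used along the body, so that a low position number goes with anterior and a high one with posterior tissue. Genes with the same number in different clusters are paralogs. In adult arteries the set of HOX genes that smooth muscle and adventitial cells express still differs along the vascular tree, and HOX proteins act on DNA together with partner homeodomain proteins of the PBX and MEIS families.

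The coding members share the homeobox, the stretch that encodes the homeodomain. That of Hoxc6 is shown because this domain carries the DNA binding by which HOX proteins act. The sequence is that of the longest coding transcript in GENCODE vM21 (GRCm38) and runs 5′ to 3′, with the codons of homeodomain residues 48 to 53, part of the DNA recognition helix, in capitals.
Hoxc6 (chromosome 15): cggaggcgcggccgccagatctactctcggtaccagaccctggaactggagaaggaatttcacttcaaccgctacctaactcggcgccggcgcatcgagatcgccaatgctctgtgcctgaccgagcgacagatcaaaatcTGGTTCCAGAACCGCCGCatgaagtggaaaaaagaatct

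Gene models in the clusters overlap, and transcripts were compared in stretches of 50 bases. No such stretch of Hoxc6 occurs in a transcript of another gene on either strand. Hoxa4, Hoxa5 and Hoxa6 lie inside the gene model of Hoxa3 on the same strand, and 7.42% of the 50-base stretches of Hoxa3 occur in same-strand transcripts of other genes, nearly all of them in the read-through model Gm28308. On the opposite strand 21.7% of the Hoxa3 stretches have a match, in Hoxaas2 (7.62%), Gm29430 (5.76%), Hoxaas3 (4.18%) and 5730596B20Rik (4.08%) among others. Hoxb5os lies opposite Hoxb5 and Hoxb6, and 7.89% of its stretches match Hoxb5. Hoxc6, Hoxc8 and Hoxc9 lie inside the gene model of Hoxc5 on the same strand. Hoxc5 shares 3.92% of its stretches with Hoxc10 on that strand, through a long transcript model that spans both. The library kit keeps strand, per the labels' protocols, but whether strand was used in counting is not given in the sources used here. Values for Hoxa3 and Hoxb5os are uncertain to that extent. For Hoxa3 and Hoxc5 the stretches shared on the same strand leave an uncertainty that the use of strand would not settle.

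Hoxa3 was also the 1 listed member with a promoter in the RefSeq promoter table (GRCm38.p6). Its 300 bases, from 250 before to 50 after the annotated start, are shown because Hoxa3 is the member that recurred, with CG pairs in capitals.
Hoxa3 promoter, chr6:52213018-52213317, minus strand: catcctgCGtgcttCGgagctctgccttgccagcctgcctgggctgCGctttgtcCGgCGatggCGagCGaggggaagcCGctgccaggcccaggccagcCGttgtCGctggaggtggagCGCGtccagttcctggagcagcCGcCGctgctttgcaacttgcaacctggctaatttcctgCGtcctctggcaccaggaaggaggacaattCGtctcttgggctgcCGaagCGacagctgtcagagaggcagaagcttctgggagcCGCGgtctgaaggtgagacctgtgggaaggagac

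This promoter holds 20 CG pairs, against a median of 7 over 32851 promoters of the same length, of which 26.5% hold as many or more. Over the 27 promoters of HOX members in that table the number ran from 4 to 45 with a median of 15. The annotated start lies upstream of Hoxa6, so that the longest Hoxa3 model runs across Hoxa6, Hoxa5 and Hoxa4. Whether the Hoxa3 RNA counted in aorta came from this start is not known from these data.

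The fold change, SE, p-value and mean normalized count of each called gene below are the authors' own. Group means, shares, ranks and differences between genotypes were computed from them. A log2 fold change compares the means of 2 groups of 5 libraries, its standard error (SE) is given beside it, and a gene was called at an adjusted p under 0.05. The deposited fold changes are shrunken towards 0, so group means implied from them lie closer together than unshrunken values would place them. No value of a single library entered the results, sequencing depth is unknown, and a group mean is the one implied by the deposited mean normalized count and fold change. A member that is not listed was either tested and not called or not tested, and the tables do not tell these apart. The replicate behind each p-value is a pool of 2 mice.

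Ageing in wild-type aorta was the first question. Hoxa3 was lower in WT aged than in WT young aorta, while Hoxc6 and Hoxb5os were higher. Hoxa3 is an anterior HOX gene needed in the mouse embryo for structures of the pharyngeal arches, including the carotid arteries. Hoxc6 is a mid-cluster gene that is active in the thoracic region of the embryo. These 3 members were 6.98% of the 43, which is the smallest share they can be of the members tested, and 12.0% of all 14374 tested genes were called.

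For Hoxa3 the authors' deposited table gave a log2 fold change of −0.31 (SE 0.14, adjusted p = 0.0331) at a mean normalized count of 1004. Its implied mean was near 1111 in the young and 896 in the aged group. Hoxc6 was at 0.41 (SE 0.19, adjusted p = 0.0267) in the authors' deposited table, with implied means near 224 (young) and 298 (aged). Hoxb5os stood at 0.32 (SE 0.15, adjusted p = 0.0485) in the authors' deposited table, with implied means near 1198 (young) and 1495 (aged). Each listed member lay in a different cluster, so directions within a cluster could not be compared. Among all tested genes 5.26% were higher and 6.76% lower, beside 2 higher and 1 lower of the members. No HOX member reached an adjusted p under 0.01, a bound met by 7.30% of tested genes. None reached a change of 0.5 on the log2 scale in either direction, as 4.44% of tested genes did.

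KO young and WT aged aorta, compared next, differ in age and genotype together. Hoxa3 was the 1 HOX member listed, and it was higher in the KO young group. This is 2.33% of the 43 members, beside 7.78% of the 14661 genes tested. Those higher in KO young were 4.08% of tested genes and those lower 3.70%. Given as KO young over WT aged, which reverses the sign in the authors' deposited table, Hoxa3 was at 0.34 (SE 0.12, adjusted p = 0.00662). The implied means were about 1132 in KO young and 895 in WT aged. Hoxa3 also met the bound of 0.01, as did 4.77% of tested genes, but not the size of 0.5, which 2.80% of tested genes reached.

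The same ageing question was put to KO aorta. Hoxa3 and Hoxc5 were among 3 HOX members that were lower in KO aged than in KO young aorta, and no HOX member was higher. Hoxc5 is a neighbour of Hoxc6 in the same cluster and patterns the cervical and upper thoracic region in the mouse embryo. The 3 were 6.98% of the 43 members, beside 14.4% of the 14477 genes tested. Of tested genes 7.71% were higher and 6.68% lower.

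Hoxa3 was at −0.34 (SE 0.10, adjusted p = 0.00184) in the authors' deposited table, with implied means of about 1153 in KO young and 911 in KO aged. For Hoxc5 the authors' deposited table gave −0.38 (SE 0.22, adjusted p = 0.0422), with implied means of about 226 and 173. The 95% interval from the deposited SE around the shrunken value of Hoxc5 (−0.81 to 0.05) includes 0, although the gene was called by p. The same was so for 133 of the 2083 genes called in this comparison (6.39%). Hoxa3 alone of the members met an adjusted p under 0.01, which 8.43% of tested genes met. Of the 3 members 1 reached a change of 0.5 on the log2 scale, as did 3.67% of tested genes.

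**Figure D1:**
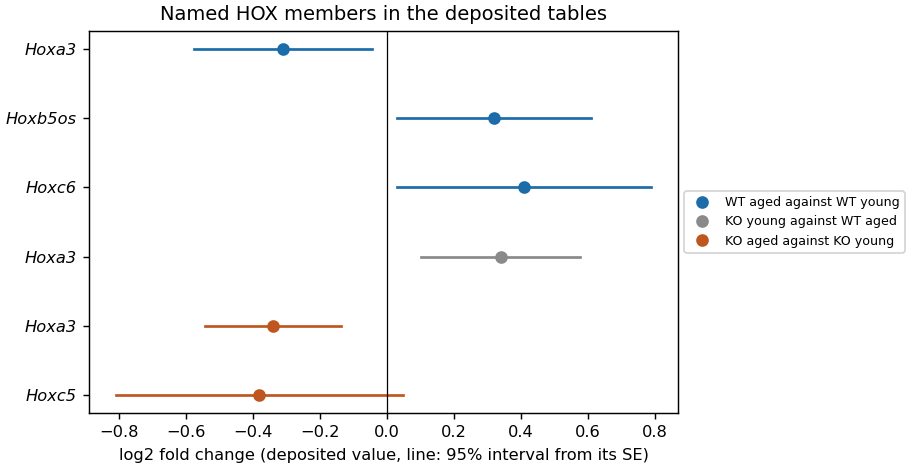
Deposited log2 fold change of each named HOX member (point) with the 95% interval from its SE (line), coloured by comparison. The 3 Hoxa3 lines and those of Hoxc6 and Hoxb5os do not cross 0, while that of Hoxc5 does. The lines of Hoxc6 and Hoxb5os start at 0.03, and that of Hoxa3 in WT ageing ends at −0.04.

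Hoxa3 was thus lower in the aged group in each genotype and lower in WT aged than in KO young. Its implied means were 896 and 895 in WT aged from the 2 tables that hold that group, and 1132 and 1153 in KO young. These tables were normalized separately and share groups, so the agreement of the shared means is arithmetic rather than a repeat. The ageing comparisons share no library. Between them the Hoxa3 effect differed by −0.03 (KO minus WT, SE 0.17, 95% interval −0.36 to 0.30, adjusted p = 0.919 over the 438 genes in both ageing tables), computed from the fold changes and SEs of the authors' deposited tables. Of those 438 genes 131 differed between the genotypes at an adjusted p under 0.05. The interval leaves room for a difference as large as the ageing effect itself.

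**Figure D2:**
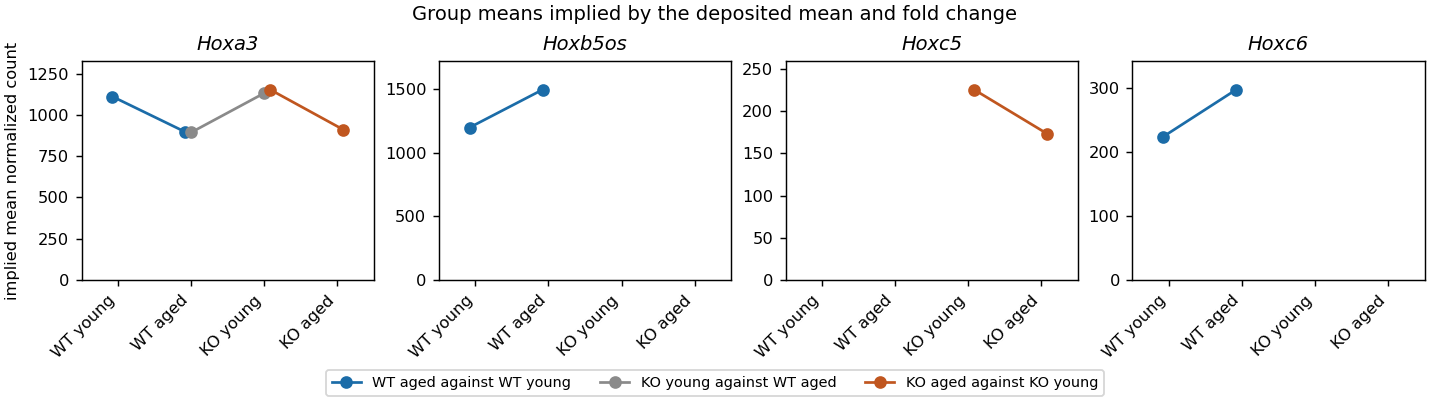
Implied mean normalized count (linear axis from 0) of each named HOX member in the 4 groups; a line joins the 2 groups of 1 deposited table. Hoxa3 stands at 1111 to 1153 in the young groups and at 895 to 911 in the aged groups; the other members have values from 1 table only.

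Among the 236 genes listed in all 3 tables, 130 had the Hoxa3 arrangement, lower in both ageing comparisons and higher in KO young against WT aged. A further 87 had the reverse arrangement. The comparisons share WT aged and KO young libraries, so such counts are a description.

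Hoxc5, Hoxc6 and Hoxb5os were each listed in 1 ageing table, and whether their ageing effects differed between genotypes was not tested. The size of change that was called at their level gives some scale. In KO ageing 115 genes within 20% of the mean of Hoxc6 were called, and 45 of them had a change no larger than the 0.41 of Hoxc6 in WT ageing. For Hoxb5os, 152 of 232 called genes at its level in KO ageing had a change no larger than its 0.32. In WT ageing 10 of 105 called genes at the level of Hoxc5 had a change no larger than its 0.38. A change in WT aorta like that of Hoxc5 in KO aorta would therefore be among the smallest called at that level.

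Among called genes ordered by p-value, Hoxa3 was at rank 647 of 1141 in KO young against WT aged and at rank 817 of 2083 in KO ageing. In WT ageing Hoxc6 was at rank 1389, Hoxa3 at rank 1490 and Hoxb5os at rank 1718 of 1728. Hoxc5 ranked 1964 in KO ageing, so that these 4 values lay in the last part of their tables. Compared with called genes of similar level, Hoxa3 lay within the range of sizes: 49 of 146 had a smaller change in WT ageing, 45 of 111 in KO young against WT aged, and 144 of 244 in KO ageing.

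**Figure D3:**
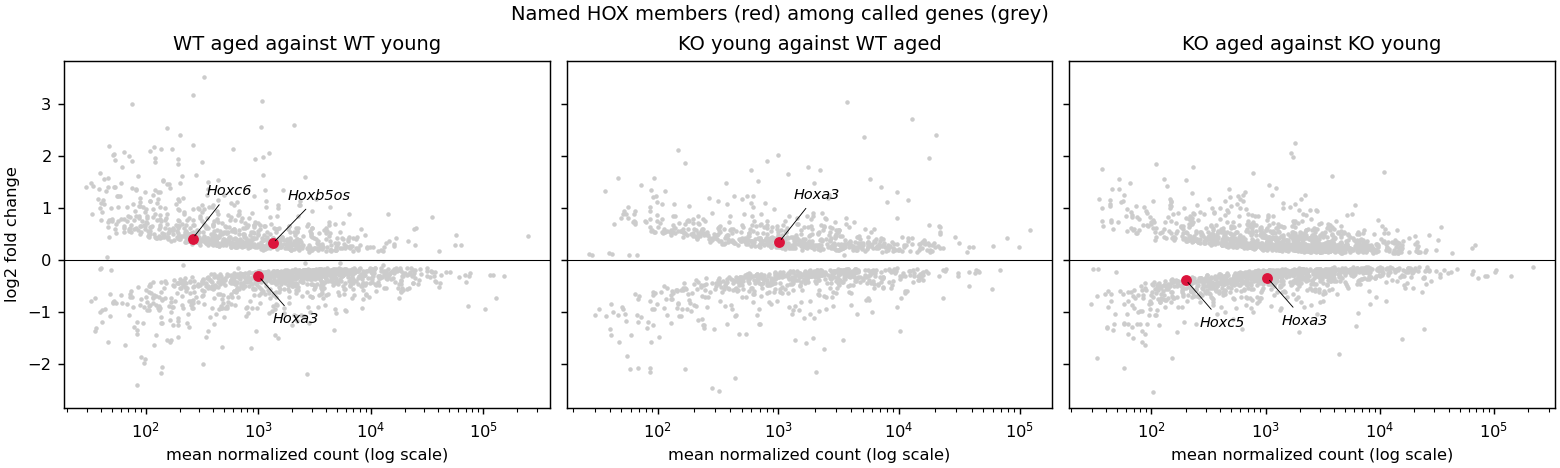
Mean normalized count (log axis) against log2 fold change for every called gene (grey) and the named HOX members (red) in the 3 comparisons. The named members lie between −0.38 and 0.41, within the range of the grey points at their level.

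By position, none of the 16 coding genes at positions 9 to 13 was listed in any table. Of the 4 antisense or opposite-strand members 1 was listed. How many of the posterior genes were expressed highly enough to be tested is unknown, so the absence of positions 9 to 13 is not a result about those genes.

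Transcripts that share sequence with the listed members were looked up after their values were known. Of 8 genes with at least 50 shared stretches, 5730596B20Rik was listed in 1 table and the other seven, among them Hoxaas2, Hoxaas3, Hoxb5 and Hoxc10, in none. The locus 5730596B20Rik lies inside the Hoxa3 model on the opposite strand. In KO ageing it was at −0.34 (SE 0.10, adjusted p = 0.00194) in the authors' deposited table, next to −0.34 (SE 0.10, adjusted p = 0.00184) for Hoxa3. Its implied means were about 748 in KO young and 591 in KO aged. Without knowledge of how strand entered the counting, RNA of these 2 loci cannot be told apart where their transcripts overlap. In the transcripts compared here that is 4.08% of the 50-base stretches of Hoxa3.

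HOX proteins act with cofactors, and of 11 HOX cofactor genes 3 were called in some comparison, all lower with age. Meis1, which encodes a partner of HOX proteins, was at −0.20 (SE 0.08, adjusted p = 0.0395) in WT ageing in the authors' deposited table. In KO ageing the authors' deposited table gave −0.31 (SE 0.08, adjusted p = 0.000323) for Meis1 and −0.18 (SE 0.07, adjusted p = 0.0401) for its paralog Meis2. The list thus had 1 of 11 called (9.09%) in WT ageing and 3 of 11 (27.3%) in KO ageing, where the median of the called genes was −0.18. Over all tested genes the called share was 12.0% in WT ageing and 14.4% in KO ageing. The list is too short to read a difference from these shares. For this and each later list, the share is of all its genes, tested or not. It is the smallest share that the called genes can be of those tested. No cofactor was called in KO young against WT aged. The Meis1 effect differed between genotypes by −0.11 (95% interval −0.33 to 0.11, adjusted p = 0.587), from the authors' deposited tables.

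Polycomb and trithorax proteins keep HOX clusters silent or active through marks on histones. Of 40 such chromatin regulators 4 were called in WT ageing (10.0%), 3 lower and 1 higher. Ezh2, the Polycomb enzyme that methylates histone H3, was at −0.60 (SE 0.18, adjusted p = 0.000807) in the authors' deposited table. Its complex partner Suz12 was at −0.19 (SE 0.08) in the authors' deposited table, and Ring1, of the other Polycomb complex, at 0.27 (SE 0.10). Kdm6b, a demethylase that removes the Ezh2 mark, was called in all 3 comparisons and in the same arrangement as Hoxa3. The authors' deposited tables gave Kdm6b −0.58 (SE 0.12) in WT ageing, 0.28 (SE 0.10) in KO young against WT aged with the sign turned, and −0.25 (SE 0.07) in KO ageing. Its ageing effect differed between genotypes by 0.33 (95% interval 0.06 to 0.60), with an unadjusted p of 0.0186 and an adjusted p = 0.0603, so that it did not pass.

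In KO ageing 6 of the 40 regulators (15.0%) were called, 3 higher and 3 lower, against 14.4% of all tested genes. Besides Kdm6b, the Polycomb reader gene Cbx7 (−0.31, SE 0.08) was lower in the authors' deposited table. Higher in the authors' deposited table were the histone methyltransferase genes Dot1l (0.21, SE 0.08) and Kmt2d (0.15, SE 0.06), and Zbtb16, a zinc-finger regulator of HOX genes in the mouse limb (1.69, SE 0.09). Against WT aged, KO young had 3 called regulators (7.50%), with Zbtb16 at −1.36 (SE 0.21) and Cbx7 at 0.21 (SE 0.08) beside Kdm6b in the authors' deposited table, sign turned. These shares of all 40 genes, tested or not, were near the background in each comparison.

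Retinoic acid, made from vitamin A, switches on anterior HOX genes in the embryo. Of 26 genes of this pathway 2 were called in WT ageing, 2 in KO young against WT aged (7.69% each) and 7 in KO ageing (26.9%). Over all tested genes the called shares were 12.0%, 7.78% and 14.4% in the same order. Whether the pathway lay below the background in WT ageing cannot be read. How many of its 26 genes were tested is unknown. Cyp26b1, which degrades retinoic acid, was lower with age in both genotypes, at −0.92 (SE 0.29) in WT and −0.72 (SE 0.11) in KO aorta in the authors' deposited tables. Aldh1a2, which makes retinoic acid, was higher in WT aged aorta at 1.92 (SE 0.40) in the authors' deposited table, with a low mean normalized count of 53.3. In KO ageing the retinaldehyde reductase gene Dhrs3 was at −0.47 (SE 0.07) and the receptor gene Rara at −0.34 (SE 0.12) in the authors' deposited table. Higher there were Adh1 (0.39, SE 0.15), Aldh1a1 (0.27, SE 0.12), Nrip1 (0.20, SE 0.08) and Rxrg (0.59, SE 0.45) in the authors' deposited table. KO young had Dhrs3 at 0.33 (SE 0.09) and Adh1 at −0.53 (SE 0.19) relative to WT aged in the authors' deposited table, sign turned. The called genes of the pathway, taken as a list, thus moved in both directions with age. Where called in an ageing comparison, Cyp26b1, Dhrs3 and Rara were lower, and Aldh1a2, Adh1, Aldh1a1, Nrip1 and Rxrg were higher. For Rxrg the interval from the deposited SE (−0.29 to 1.47) includes 0.

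**Figure D4:**
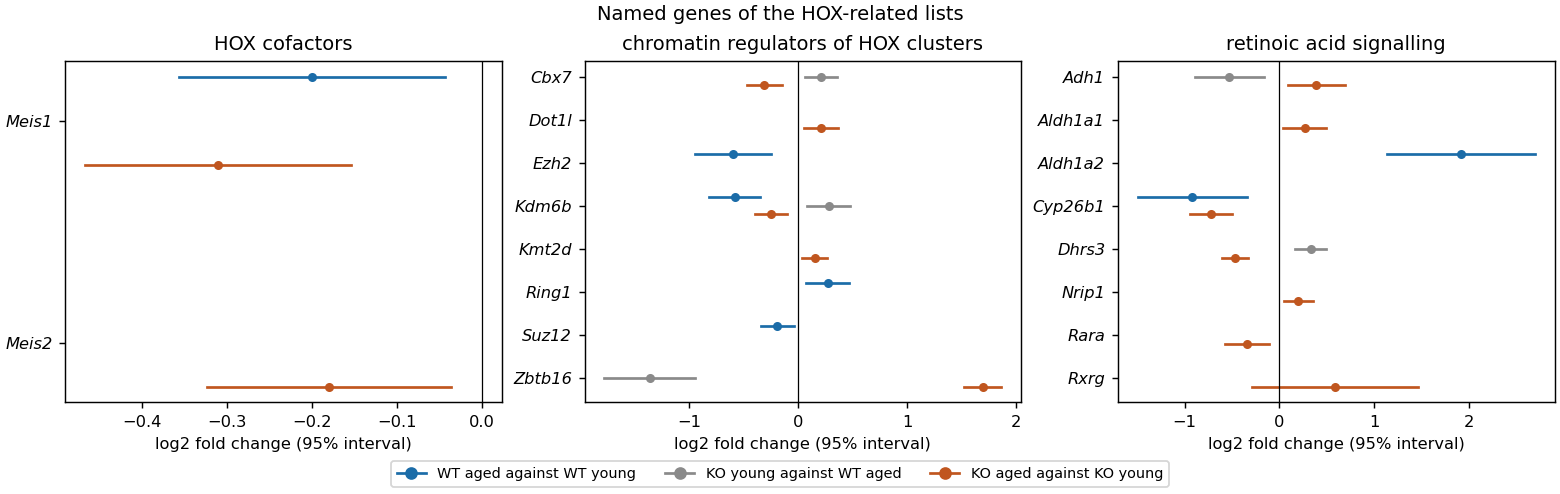
Deposited log2 fold changes (points, with 95% intervals) of the named genes of 3 HOX-related lists, coloured by comparison. All cofactor points lie left of 0, while chromatin regulators and retinoic acid genes fall on both sides.

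Of 24 genes that border the HOX clusters 2 were called in WT ageing (8.33%), none in KO young against WT aged and 1 (4.17%) in KO ageing, beside 12.0%, 7.78% and 14.4% of all tested genes. Snx10 (0.31, SE 0.13) and Hnrnpa1 (−0.16, SE 0.06) in WT ageing and Hibadh (0.26, SE 0.07) in KO ageing were those in the authors' deposited tables. Of these, Snx10 and Hibadh lie on the chromosome of HoxA. Each was higher in the 1 comparison that lists it, where Hoxa3 was lower, and has no value in the others.

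Among 86 other homeobox and regional transcription factor genes 8 were called in WT ageing (9.30%), 5 higher and 3 lower. In KO young against WT aged 9 were called (10.5%) and all were higher, and in KO ageing 14 (16.3%), 5 higher and 9 lower. Over all tested genes 12.0%, 7.78% and 14.4% were called in these comparisons. Counted without direction, the list's shares were near these values. By direction they were not near them in KO young against WT aged, where 10.5% were higher and none lower. That difference was not tested. The higher and lower shares of tested genes were 5.26% and 6.76% in WT ageing, 4.08% and 3.70% in KO young against WT aged, and 7.71% and 6.68% in KO ageing. In WT ageing the authors' deposited table gave 1.14 (SE 0.24) for the tendon factor gene Mkx, 0.67 (SE 0.17) for Six4, 0.36 (SE 0.08) for Zfhx4 and −0.40 (SE 0.20) for Foxf1. KO young exceeded WT aged for Pou6f1 (0.33, SE 0.08), Zeb2 (0.28, SE 0.07), Gata6 (0.26, SE 0.08), Zeb1 (0.19, SE 0.06) and Meox2 (0.36, SE 0.14) in the authors' deposited table, sign turned. In KO ageing the authors' deposited table gave 0.63 (SE 0.09) for Six4, −0.36 (SE 0.07) for Zeb2, −0.44 (SE 0.09) for Pou6f1, −0.34 (SE 0.07) for the mesenchymal factor gene Prrx1 and 1.14 (SE 0.26) for Tbx3.

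HOX levels differ between the cell types of the aortic wall, and in bulk tissue fewer cells of a type and less RNA per cell cannot be told apart. Over all tested genes 12.0% were called in WT ageing, 7.78% in KO young against WT aged and 14.4% in KO ageing. The marker lists hold at most 7 genes, too few to read a difference from such shares. In WT ageing 4 of 7 fibroblast and adventitial markers were lower, beside 6.76% of tested genes. They were led by Serpinf1 (−0.44, SE 0.09), Col1a1 (−0.95, SE 0.34) and Dpt (−0.33, SE 0.12) in the authors' deposited table. Summed over the 4, the implied mean was near 157111 in the young and 86472 in the aged group, most of it Col1a1. Against WT aged, KO young had 2 of these 7 higher, Dpt (0.20, SE 0.08) and Serpinf1 (0.22, SE 0.10), and in KO ageing Col1a1 alone was lower (−0.35, SE 0.16), all in the authors' deposited tables. The called markers had the direction of Hoxa3 in each comparison, in KO ageing through 1 marker of 7. Called adipocyte markers, given below, had the opposite direction in each. Among the 236 genes called in all 3 comparisons, 130 had the arrangement of Hoxa3. The part of these cell types in the Hoxa3 result was not tested.

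Smooth muscle markers, of which 3 of 7 appeared in some table at high means, gave Smtn at −0.20 (SE 0.07) in KO young against WT aged, and Myocd at 0.58 (SE 0.09) and Lmod1 at −0.32 (SE 0.09) in KO ageing, in the authors' deposited tables. Their mean normalized counts, from 14041 to 43164, show smooth muscle RNA in the labelled aorta. In KO ageing 3 of 6 brown adipocyte markers were higher, beside 7.71% of tested genes. They were Ppargc1a (0.89, SE 0.14), Ucp1 (1.62, SE 0.45) and Cox8b (1.39, SE 0.53) in the authors' deposited table. Their summed implied mean was about 3044 in KO young and 8452 in KO aged. Dio2, of the same list, was at 0.57 (SE 0.13) in KO young against WT aged in the authors' deposited table, sign turned. Adipocyte markers had Cidec at 0.45 (SE 0.17) in WT ageing and Plin4 at 0.20 (SE 0.07) in KO ageing, with Cidec at −0.56 (SE 0.16) and Plin4 at −0.17 (SE 0.07) in KO young against WT aged, in the authors' deposited tables. Of 7 endothelial markers 3 were called, in KO young against WT aged only, where 7.78% of tested genes were called. Vwf was at −0.62 (SE 0.34), Tek at −0.37 (SE 0.17) and Kdr at 0.36 (SE 0.15) in the authors' deposited table, sign turned. Striated muscle markers gave Actc1 at −1.99 (SE 0.40) and Myh6 at −0.09 (SE 0.19) in WT ageing and Tcap at −1.03 (SE 0.39) in KO young against WT aged, and of the Schwann cell and neuron markers S100b was at 0.36 (SE 0.21) in KO ageing, in the authors' deposited tables. No macrophage, T and B cell or mesothelial marker was called in any comparison. Levels of markers that are not listed are unknown, and the part of these cell types in the HOX results was not tested.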

How the data were processed

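Per the labels' protocols, RNA of cleaned aorta was made into libraries with a stranded low-input kit, 1 library per pool of 2 mice and 20 libraries in all. The submitters' processing notes name DESeq2 1.42.1, featureCounts (Subread 2.0.8), STAR 2.7.11b, MultiQC 1.25.1 and the build GRCm39, without the role or settings of each tool. For each called gene the deposited columns, per the file headers, are a log2 fold change rounded to 2 decimals, its standard error (treated as a score, in log2 units), the raw and adjusted p-value, and a mean normalized count (treated as a signal and taken as the average over both groups). Values per library were not used here and depth is unknown. How many genes were tested was worked out as the largest product of adjusted p and rank over raw p, and each table holds all its called genes, the rank implied for the last row being its number of rows (1728, 1141 and 2083).

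The direction of the deposited fold changes was read from group means implied for the group shared by 2 tables: with a positive value as higher in the aged group the median absolute deviation was 0.0286 and 0.0353 on the log2 scale, and at least 0.115 otherwise. KO young against WT aged was therefore turned. Deposited fold changes over their SEs had a median of 0.841 to 0.865 of the z implied by p, so they are shrunken. Ageing effects were compared between genotypes by the difference over the root of the summed squared SEs, against a normal distribution, two-sided, with Benjamini-Hochberg adjustment over the 438 genes in both tables. Such genes were selected as called in both, and the shrunken values may understate a difference. The computations were tested on simulated data.

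The HOX members and the 5 related and 10 cell type lists were chosen with earlier results of these data known. The text names every listed HOX member, every listed gene of the first 4 related lists, up to 6 per comparison of the other homeobox list by smallest adjusted p, and up to 3 per comparison of each marker list; 5730596B20Rik was added after its values were seen. Some genes that this rule names are not reported here, though the counts include them. Symbols were matched to GENCODE vM21 and RefSeq tables of GRCm38, a build other than the authors', so these served only for names, gene order and the printed sequences; 3 symbols of the neighbour list had no match there. Stretches of 50 bases were compared over all GENCODE vM21 transcripts. Alternatives were an adjusted p under 0.01, a mean normalized count of at least 50, a change of 0.5 or more on the log2 scale, coding members only, and for the difference the SE implied by p. Tables were handled in pandas 2.3.3 under Python 3.11.15, tests used SciPy 1.17.1 with NumPy 2.4.6, and figures matplotlib 3.10.9.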

Additional observations from a re-analysis of the deposited data

How the results depend on the processing

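With an adjusted p under 0.01 the HOX members called fell from 3 to 0 in WT ageing and from 3 to 1 in KO ageing, and stayed at 1 in KO young against WT aged. Where a change of 0.5 or more on the log2 scale was required they were 0 in WT ageing, 0 in KO young against WT aged and 1 in KO ageing. A mean normalized count of at least 50 changed none of the 3 counts, and coding members only gave 2, 1 and 3. The difference in the Hoxa3 ageing effect was −0.03 under each setting, with an adjusted p of 0.883 with the SE implied by p and 0.920 with the filter on the mean. No paired analysis was possible because values per library were not used here, and the replicates could not be left out in turn for the same reason. The depth of the libraries is unknown, and a member that is not listed has no value in these tables.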
